A study of Mus musculus with 6 samples.

Results

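The 54 genes described here are the Wnt ligands, their receptors, their secreted inhibitors, the R-spondin module and a set of target and feedback genes. They were chosen by name from a deposited expression table of 54532 genes, and all 54 names were found, 1 row each: 15 ligands, 15 receptors, 11 secreted inhibitors, 8 genes of the R-spondin module and 5 targets or feedback genes. RNA was sequenced from cultured mouse cells grown out of collagenase-treated chips of femur and tibia and sorted on the fluorescence of a Cre reporter. The Prx1-Cre transgene, whose promoter drives recombination in limb mesenchyme, and the ROSA-YFP reporter were present in both groups. The WT group had Zeb1wt/wt alleles and the Zeb1Prx1 group had Zeb1fl/fl alleles, whose recombination by Cre removes the transcription factor Zeb1 from Prx1-lineage cells. All samples were untreated, each group had 3 libraries, and the labels give neither age nor sex nor whether replicates came from separate mice. The p-values therefore measure only the spread between these libraries, which may be technical.

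Wnt proteins are secreted, lipid-modified ligands that bind Frizzled receptors. With the co-receptors Lrp5 or Lrp6 they stabilise beta-catenin, which acts with Tcf and Lef factors on target genes, whereas ligands such as Wnt5a also act through Ror2 and Ryk without beta-catenin. In the skeleton the beta-catenin branch is known for promoting osteoblast formation and restraining chondrocyte fate, and it is held in check by secreted proteins that bind the ligands (Sfrp family, Wif1), block the co-receptors (Dkk1, sclerostin) or strip the lipid from the ligand (Notum). R-spondins amplify the signal by acting with Lgr receptors against the ubiquitin ligases Znrf3 and Rnf43.

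Values are FPKM, the number of fragments normalised to gene length and to the size of the library, as the authors computed them, so levels of different genes can be compared per length. The libraries held 14724357 to 18354894 fragments assigned to genes. Zeb1 measured 6.61, 10.3 and 7.12 FPKM in WT replicates 1, 2 and 3, and 1.92, 1.59 and 2.84 FPKM in Zeb1Prx1 replicates 1, 2 and 3. All Zeb1Prx1 libraries lay below all WT libraries, with a log2 difference of -1.53 (SE 0.22) and a limma adjusted p of 0.229. The stromal marker Prrx1 was present at 23.2 ± 6.54 FPKM in WT and 21.2 ± 1.97 FPKM in Zeb1Prx1 (mean ± SD, n = 3 libraries, as in all later values of this form). The summed level of 18 macrophage markers was 13479 to 16343 FPKM in WT and 11084 to 22129 FPKM in Zeb1Prx1, a sum that was mostly Lyz2 (7034 to 16368 FPKM), so the RNA of the sorted cells was not that of stroma alone. Of these 18 markers 7 (Adgre1, Csf1r, Cd68, Ptprc, Cybb, Mpeg1 and Laptm5) were lower in every Zeb1Prx1 library than in every WT library, and none was higher in that way. In such bulk RNA, fewer cells of a type and less RNA per cell cannot be told apart.

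Of the 54 Wnt genes, 28 reached 1 FPKM in at least 3 of the 6 libraries and were tested, among 12534 genes tested in all. None passed the test (limma on log2(FPKM + 1), Benjamini-Hochberg adjusted p under 0.05; adjusted p 0.273 to 0.976), and 0.0% of all tested genes did. Before the adjustment for multiple tests 6 members, Fzd5, Fzd6, Fzd9, Ror2, Wif1 and Notum, had p under 0.05, all higher in Zeb1Prx1, and no member was lower. The same 6 members were found with voom on recovered fragments. Over all genes, 8.15% were higher at this level and 6.98% were lower. Every Zeb1Prx1 library lay above every WT library for 5 members (Fzd5, Fzd6, Fzd9, Ror2 and Notum) and below for 0, beside 12.6% and 11.8% of all tested genes. Fzd9 and Notum passed the filter through Zeb1Prx1 libraries alone, so the filter itself chose them for being high there. Of the other 26 tested members, 3 had genotypes without overlap and 4 had an unadjusted p under 0.05.

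The log2 difference was above 0 for 20 of the 28 tested members and below 0 for 8, with a median of 0.42, beside 51.9% above 0 and a median of 0.02 over all genes tested. Without Fzd9 and Notum the median was 0.27 and 18 were above 0. Zeb1Prx1 replicate 3 held the highest value of 13 of the 28 tested members, and WT replicate 1 held the lowest value of 11. With the mean log2 level of the macrophage markers as a covariate the median was 0.02, and 4 members had an unadjusted p under 0.05. Of these, Notum and Rspo3 were higher and Fzd7 (log2 difference -1.03) and Lrp5 (-1.44) were lower. Fzd5, Fzd6, Fzd9, Ror2 and Wif1 missed that level with the covariate. Of the 18 macrophage markers 15 had a log2 difference below 0, so the covariate and the genotype cannot be fully told apart. A smaller difference with the covariate therefore does not assign that difference to macrophage content. Differences are on the log2(FPKM + 1) scale, which understates the change of low genes.

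**Figure D1:**
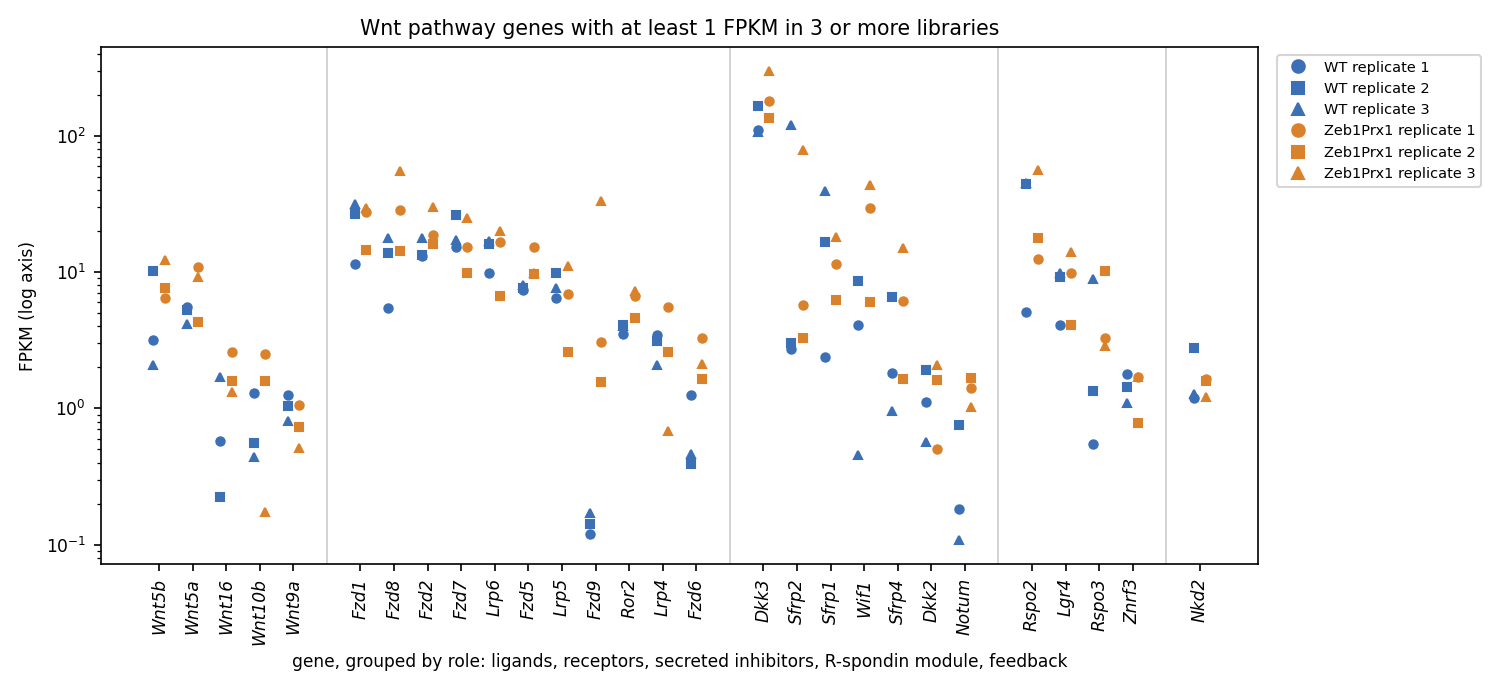
FPKM on a log axis of the 28 tested Wnt genes, grouped by role. Each point is 1 library, with WT in blue and Zeb1Prx1 in orange, and the marker shape gives the replicate. Dkk3 stands highest at 106 to 300 FPKM, and for Fzd9 the WT libraries lie under 0.2 FPKM while the Zeb1Prx1 libraries lie between 1.55 and 33.1 FPKM.

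Among the 15 ligands, Wnt5b and Wnt5a were the most abundant and made up 58.6% to 84.9% of summed ligand FPKM in each library. The 5 tested ligands had a median log2 difference of 0.54, with 4 above 0 and 1 below 0, and none had an unadjusted p under 0.05. Wnt5a, the best known activator of the branch without beta-catenin, measured 5.52, 5.31 and 4.15 FPKM in WT and 11.0, 4.29 and 9.27 FPKM in Zeb1Prx1. Zeb1Prx1 replicates 1 and 3 stood above all WT libraries and replicate 2 stood among them, and the log2 difference was 0.54 (SE 0.31, 95% interval -0.19 to 1.27, limma adjusted p = 0.407). Wnt5b, a close relative known from cartilage, measured 3.17, 10.2 and 2.09 FPKM in WT and 6.47, 7.69 and 12.2 FPKM in Zeb1Prx1. The genotypes overlapped through WT replicate 2. Wnt5b also overlaps Fbxl14 on the opposite strand, a gene at 15.0 FPKM on average, and whether counting used strand is not given in the sources used here.

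The other tested ligands were close to 1 FPKM. Wnt16, which is known for protecting cortical bone, measured 0.829 ± 0.764 FPKM in WT and 1.83 ± 0.678 FPKM in Zeb1Prx1. Wnt10b, an osteoblast-promoting ligand, measured 0.760 ± 0.458 against 1.43 ± 1.18 FPKM. For Wnt9a, a joint-forming ligand, the values were 1.03 ± 0.231 and 0.764 ± 0.269 FPKM, the only tested ligand with a lower mean in Zeb1Prx1. The libraries of the genotypes overlapped for each of these 3 genes. The limma unadjusted p was 0.0741 for Wnt16, 0.422 for Wnt10b and 0.309 for Wnt9a. Summed over all 15 ligands, the level was 14.4, 19.8 and 10.6 FPKM in WT and 26.8, 18.6 and 25.2 FPKM in Zeb1Prx1, where replicate 2 fell below the highest WT library.

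The remaining 10 ligands were under the filter. Wnt1, Wnt3 and Wnt3a had 0 fragments in every library, which allows up to 0.163 to 0.204 CPM of the assigned fragments depending on the library. Wnt2 had 4 fragments in all. For the other 6, fragments recovered from the FPKM were summed by genotype and scaled by the assigned fragments, with exact 95% intervals that cover counting error only and not the spread between libraries. Wnt7b had 16, 10 and 3 fragments in WT and 52, 21 and 10 in Zeb1Prx1, a ratio of 2.73 (1.77 to 4.32), and its genotypes overlapped. Wnt2b had 31, 20 and 21 fragments in WT and 28, 6 and 12 in Zeb1Prx1, a ratio of 0.609 (0.411 to 0.894), also with overlap. Wnt4, Wnt6, Wnt10a and Wnt11 had ratios of 1.15, 1.04, 0.811 and 1.27, and the libraries of each overlapped between genotypes.

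The receptors held 4 of the 6 members with a limma unadjusted p under 0.05, all higher in Zeb1Prx1, as were 8.15% of all tested genes. Of 15 receptors 11 were tested, 7 with a log2 difference above 0 and 4 below, at a median of 0.49. These counts and the median include Fzd9, which passed the filter through Zeb1Prx1 libraries alone. Fzd9, a Frizzled receptor known for a role in bone formation (chromosome 5, 135248938 to 135251230, build mm10), measured 0.119, 0.142 and 0.170 FPKM in WT and 3.09, 1.55 and 33.1 FPKM in Zeb1Prx1. The WT values rest on 5, 5 and 6 fragments and the Zeb1Prx1 values on 114, 64 and 1158. All Zeb1Prx1 libraries were above all WT libraries, and replicate 3 stood far above the other two. The ratio of means was 87.4, and 16.1 without Zeb1Prx1 replicate 3. The log2 difference was 2.63 (SE 0.88, 95% interval 0.54 to 4.72, unadjusted p = 0.0206, limma adjusted p = 0.290), and 0.54 (unadjusted p = 0.565) with the macrophage markers as a covariate.

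Fzd6, a Frizzled best known from planar cell polarity (chromosome 15, 39006034 to 39038188), measured 1.25, 0.391 and 0.460 FPKM in WT and 3.28, 1.65 and 2.12 FPKM in Zeb1Prx1. The lowest Zeb1Prx1 library was above the highest WT library, WT replicate 1. The ratio of means was 3.36 and stayed between 2.69 and 5.52 with any 1 library left out, the highest without WT replicate 1. Its log2 difference of 0.98 (SE 0.27, 95% interval 0.35 to 1.62) had the smallest unadjusted p of the members, 0.0079 (limma adjusted p = 0.273), and was 0.64 with the macrophage covariate. Fzd5 (chromosome 1, 64730558 to 64737751) measured 7.41, 7.69 and 8.00 FPKM in WT and 15.4, 9.76 and 9.87 FPKM in Zeb1Prx1. The WT libraries lay close together and the Zeb1Prx1 libraries were all higher, replicate 1 most. The ratio of means was 1.51 and the log2 difference 0.51 (SE 0.19, limma adjusted p = 0.302). When each library was scaled to the same summed FPKM, the Fzd5 difference was 0.36 (limma unadjusted p = 0.196) and the genotypes overlapped. With the macrophage covariate it was 0.42 (limma unadjusted p = 0.208).

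Ror2, a receptor tyrosine kinase that binds Wnt5a and is mutated in skeletal dysplasias (chromosome 13, 53109312 to 53286124), measured 3.53, 4.11 and 4.01 FPKM in WT and 6.72, 4.63 and 7.29 FPKM in Zeb1Prx1. The genotypes did not overlap, and replicate 2 was the Zeb1Prx1 library nearest to WT. The ratio of means was 1.60 and the log2 difference 0.55 (SE 0.18, 95% interval 0.12 to 0.97, limma adjusted p = 0.289). With the macrophage covariate the difference of Ror2 was 0.19 (unadjusted p = 0.388), and when each library was scaled to the same summed FPKM it was 0.41 (unadjusted p = 0.129). Its relative Ror1 was under the filter, with 52, 70 and 310 fragments in WT and 56, 40 and 75 in Zeb1Prx1. WT replicate 3 alone stood apart for Ror1, and the other 2 WT libraries lay within the range of Zeb1Prx1.

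Fzd8, a Frizzled that couples to beta-catenin, measured 5.45, 13.9 and 17.8 FPKM in WT and 28.8, 14.4 and 55.4 FPKM in Zeb1Prx1. Zeb1Prx1 replicate 2 lay within the WT range. The ratio of means was 2.65, and 1.74 without Zeb1Prx1 replicate 3, and the log2 difference was 1.28 (SE 0.56, 95% interval -0.04 to 2.60, limma adjusted p = 0.335). Fzd2 measured 14.8 ± 2.72 FPKM in WT and 21.6 ± 7.57 FPKM in Zeb1Prx1, with a log2 difference of 0.49 (SE 0.26). The most abundant Frizzled in WT, Fzd1, measured 23.3 ± 10.5 and 24.0 ± 8.25 FPKM, and Fzd7 measured 19.6 ± 5.89 and 16.6 ± 7.60 FPKM. Neither difference exceeded the spread between libraries.

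The co-receptors Lrp6 and Lrp5, and Lrp4, had log2 differences below 0, each within the spread between libraries. Mean FPKM was slightly higher in Zeb1Prx1 for Lrp6 and Lrp4. The sign changed under 4 alternative settings for Lrp6, 2 for Lrp5 and 2 for Lrp4. Lrp6 measured 14.3 ± 3.91 FPKM in WT and 14.5 ± 6.97 FPKM in Zeb1Prx1, a log2 difference of -0.07. Lrp5, whose activity sets bone mass, measured 7.98 ± 1.72 and 6.85 ± 4.24 FPKM (-0.34). Lrp4, which anchors sclerostin, measured 2.89 ± 0.724 and 2.93 ± 2.43 FPKM (-0.17). The Zeb1Prx1 libraries spread more widely than the WT libraries for each of these 3 genes. Among the low Frizzleds, Fzd3 had 109, 73 and 59 fragments in WT and 85, 51 and 41 in Zeb1Prx1, a ratio of 0.700 (0.574 to 0.854 by counting error), with overlapping genotypes. Fzd4 had 66, 91 and 228 fragments against 96, 49 and 344, with replicate 3 highest in both genotypes, and Fzd10 had 1 fragment in all.

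**Figure D2:**
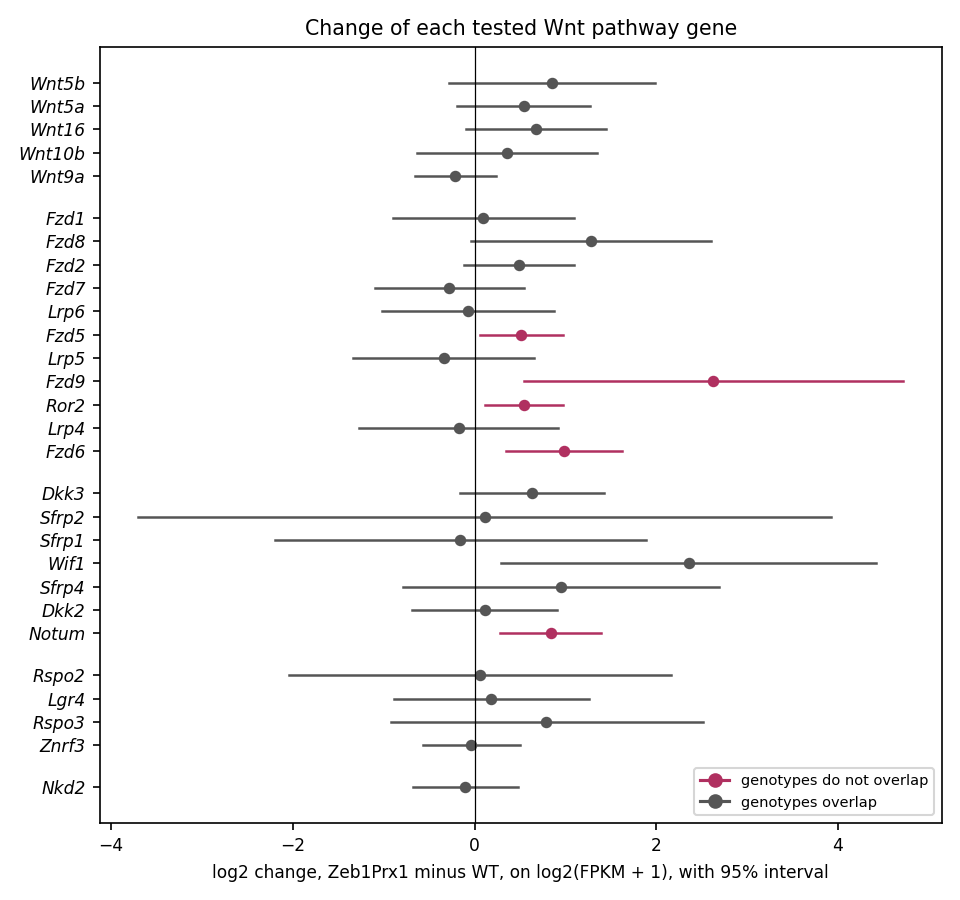
Log2 difference of Zeb1Prx1 minus WT on the log2(FPKM + 1) scale for the 28 tested Wnt genes, with the 95% interval from limma as a horizontal line. The genes whose genotypes do not overlap are Fzd5, Fzd6, Fzd9, Ror2 and Notum, drawn in red, and all 5 lie to the right of 0. Fzd9 and Notum passed the filter through Zeb1Prx1 libraries alone.

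Expressed as shares of the summed Frizzled FPKM, 3 of the 10 Frizzleds had genotypes without overlap, and no share passed the test described below. Fzd7 made up 27.8%, 29.3% and 18.0% of the sum in WT and 13.4%, 14.4% and 13.2% in Zeb1Prx1, a difference of -11.4 percentage points. Every Zeb1Prx1 library was below every WT library in this share, and the Zeb1Prx1 shares lay close together, whereas the FPKM of Fzd7 overlapped. Fzd8 made up 9.90%, 15.5% and 18.6% in WT and 25.4%, 21.0% and 29.4% in Zeb1Prx1, a difference of 10.6 points with every Zeb1Prx1 library higher. The share of Fzd9 was 0.184% ± 0.0296 in WT and 7.50% ± 8.67 in Zeb1Prx1, where replicate 3 alone reached 17.5%. For each of these shares the two-sided exact permutation test gave p = 0.1, the smallest that 3 libraries against 3 allow, and 0.333 after adjustment over the 10 shares. The shares of a library add up to a fixed total and so are not independent. The summed Frizzled level was 55.1, 89.8 and 95.7 FPKM in WT and 113, 68.4 and 189 FPKM in Zeb1Prx1, which overlapped through replicate 2.

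**Figure D3:**
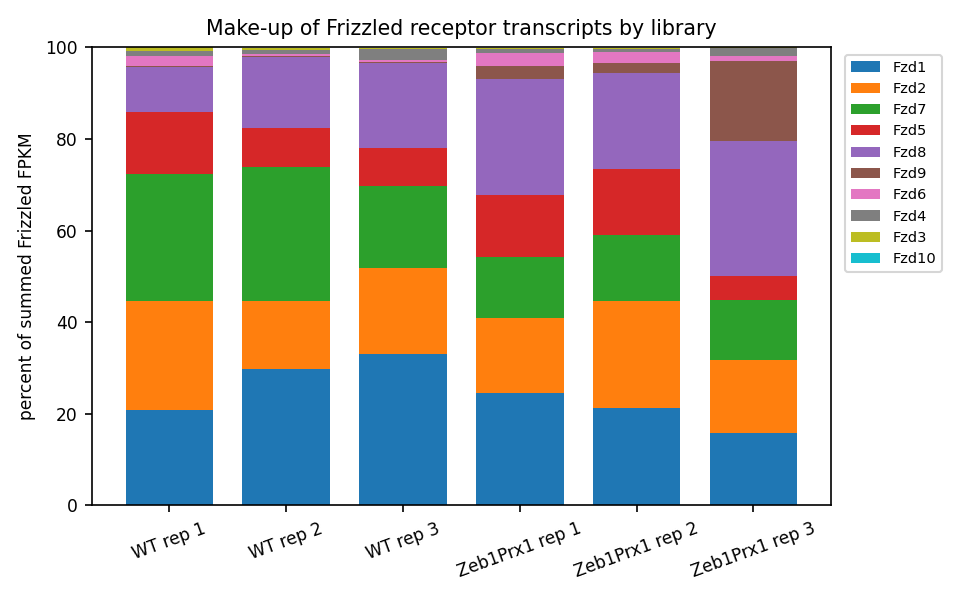
Stacked bars of the share of each Frizzled receptor, in percent of the summed Frizzled FPKM, with 1 bar per library. The Fzd7 segment covers 18.0% to 29.3% in WT and 13.2% to 14.4% in Zeb1Prx1, and the Fzd8 segment covers 9.90% to 18.6% and 21.0% to 29.4%.

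Of 11 secreted inhibitors 7 were tested, 6 with a log2 difference above 0 and 1 below, at a median of 0.63. These values include Notum, which passed the filter through Zeb1Prx1 libraries alone. Wif1, which binds Wnt ligands in the extracellular space and is expressed in cartilage and by osteoblasts (chromosome 10, 121033960 to 121100650), measured 4.10, 8.63 and 0.456 FPKM in WT and 29.7, 6.04 and 43.5 FPKM in Zeb1Prx1. Zeb1Prx1 replicates 1 and 3 were above all WT libraries, whereas replicate 2 lay below WT replicate 2. The ratio of means was 6.01, with 11.6 when WT replicate 2 was left out and 4.07 when Zeb1Prx1 replicate 3 was. The log2 difference was 2.36 (SE 0.87, 95% interval 0.29 to 4.42, unadjusted p = 0.0308, limma adjusted p = 0.302), and 0.21 with the macrophage markers as a covariate.

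Notum, an extracellular carboxylesterase that removes the lipid from Wnt ligands (chromosome 11, 120653788 to 120661175), measured 0.182, 0.756 and 0.108 FPKM in WT and 1.42, 1.66 and 1.03 FPKM in Zeb1Prx1. The lowest Zeb1Prx1 library was above the highest WT library. The ratio of means was 3.93, and 9.47 without WT replicate 2, on 40 fragments over the WT libraries and 165 over the Zeb1Prx1 libraries. The log2 difference was 0.84 (SE 0.24, 95% interval 0.28 to 1.39, limma adjusted p = 0.273), and 1.03 with the macrophage markers as a covariate.

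Dkk3, a secreted glycoprotein of the Dickkopf family whose effect on Wnt signalling is less clear than that of Dkk1, was the most abundant of the 54 genes. It measured 110, 166 and 106 FPKM in WT and 179, 136 and 300 FPKM in Zeb1Prx1, where WT replicate 2 was above Zeb1Prx1 replicate 2. Its log2 difference was 0.63 (SE 0.33), and it made up 39.4% to 89.5% of summed inhibitor FPKM. The Sfrp genes encode secreted decoys of Frizzled, and Sfrp1, Sfrp2 and Sfrp4 all had overlapping genotypes. Sfrp2 measured 2.74, 3.02 and 121 FPKM in WT and 5.72, 3.27 and 79.2 FPKM in Zeb1Prx1, so that replicate 3 stood far above the others in both genotypes. The ratio of Sfrp2 means was 0.694 over all libraries, 10.2 without WT replicate 3 and 0.106 without Zeb1Prx1 replicate 3.

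Sfrp1 measured 2.37, 16.6 and 39.6 FPKM in WT and 11.4, 6.29 and 18.2 FPKM in Zeb1Prx1, and Sfrp4 measured 3.12 ± 3.03 and 7.60 ± 6.81 FPKM. Both overlapped widely. Dkk2 measured 1.19 ± 0.670 FPKM in WT and 1.40 ± 0.805 FPKM in Zeb1Prx1. Frzb, an Sfrp-type decoy of cartilage, was under the filter with 33, 72 and 37 fragments in WT and 35, 55 and 329 in Zeb1Prx1, and only Zeb1Prx1 replicate 3 was outside the WT range. Sost, which encodes the osteocyte inhibitor sclerostin, had 0 fragments in all libraries. Dkk1 had 1 fragment and Sfrp5 had 4.

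The DNA before the starts of Fzd5, Ror2 and Wif1 is shown because these members differed before adjustment and because Zeb1 is known as a repressor that binds E-boxes of the letters CAGGTA or CAGGTG. Sequences are from RefSeq, build GRCm38.p6, 5′ to 3′ on the strand of the gene, and end at the base before the start of the gene in the deposited table. Capitals mark CAGGTA or CAGGTG on either strand (CACCTG is CAGGTG on the other strand). Fzd5 lies at chr1:64737752-64738000 on the minus strand, Ror2 at chr13:53286125-53286374 on the minus strand and Wif1 at chr10:121033754-121033959 on the plus strand.
Fzd5: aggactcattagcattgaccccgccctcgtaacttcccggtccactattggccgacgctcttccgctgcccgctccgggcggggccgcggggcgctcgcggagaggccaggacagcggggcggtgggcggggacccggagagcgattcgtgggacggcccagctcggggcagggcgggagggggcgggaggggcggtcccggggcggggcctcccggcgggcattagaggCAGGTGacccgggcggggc
Ror2: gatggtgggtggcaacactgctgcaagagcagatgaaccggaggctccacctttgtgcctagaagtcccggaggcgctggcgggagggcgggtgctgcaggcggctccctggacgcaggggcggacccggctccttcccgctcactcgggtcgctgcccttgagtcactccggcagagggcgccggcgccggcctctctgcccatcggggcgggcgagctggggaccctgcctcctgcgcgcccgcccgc
Wif1: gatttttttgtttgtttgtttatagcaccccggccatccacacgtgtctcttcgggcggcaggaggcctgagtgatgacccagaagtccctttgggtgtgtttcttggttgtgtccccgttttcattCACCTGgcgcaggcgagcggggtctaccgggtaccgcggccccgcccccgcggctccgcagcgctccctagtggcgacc

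The letters start 19 bases before the start of Fzd5 and 79 bases before that of Wif1, and were not in the Ror2 window. Over windows of the 250 bases before the RefSeq start, they occurred in 12 of the 36 members with a window (33.3%). The shares over all were 28.2% of 27025 genes and 25.4% of 32851 windows. Of the other members with these letters, Nkd1, Nkd2 and Wnt2b had a lower mean FPKM in Zeb1Prx1. Wnt4, Wnt5b, Wnt10b, Rnf43 and Sfrp5 had a higher mean, and Sost and Wnt3a were at 0. The Fzd9 window did not hold the letters, and Fzd6 and Notum had no window. The letters CTTTGA, the core of the sequence that Tcf and Lef factors bind, occurred on either strand in 7 of the 36 members (19.4%), beside 15.8% of genes. Members with CTTTGA included Fzd1, Frzb, Wnt11 and Lef1. One window can hold both sets of letters, and a match is a description of the letters and shows no binding.

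In the R-spondin module 4 of 8 genes were tested, with 3 log2 differences above 0, 1 below and a median of 0.12. Rspo2, the most abundant R-spondin, measured 5.12, 44.3 and 45.1 FPKM in WT and 12.4, 17.8 and 56.5 FPKM in Zeb1Prx1. Both genotypes spanned low and high libraries, and the log2 difference was 0.06. Rspo3 measured 0.548, 1.35 and 8.85 FPKM in WT and 3.30, 10.2 and 2.88 FPKM in Zeb1Prx1, again with overlap. The R-spondin receptor Lgr4 measured 7.73 ± 3.16 and 9.33 ± 5.00 FPKM, and the ubiquitin ligase Znrf3 measured 1.44 ± 0.352 and 1.40 ± 0.530 FPKM. Their log2 differences of 0.18 and -0.04 were within the spread between libraries.

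Lgr6, a second R-spondin receptor known from osteoprogenitors, reached 1 FPKM in only 2 libraries and was not tested. It measured 0.630, 0.123 and 0 FPKM in WT, on 79, 13 and 0 fragments, and 4.70, 0.615 and 2.99 FPKM in Zeb1Prx1, on 517, 76 and 313 fragments. Zeb1Prx1 replicates 1 and 3 were above all WT libraries, and replicate 2 fell just under WT replicate 1. The scaled fragment ratio was 9.39 (7.57 to 11.8 by counting error), and the ratio of mean FPKM was 11.0, or 44.9 without WT replicate 1. Lgr5 had 4, 16 and 61 fragments in WT and 11, 15 and 190 in Zeb1Prx1, where replicate 3 was highest in both genotypes. Rnf43 and Rspo1 had at most 19 fragments in any library, with ratios of 1.43 and 1.03.

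The target and feedback genes were low in every library. Axin2, the most widely used readout of beta-catenin activity, had 42, 44 and 13 fragments in WT and 73, 35 and 31 in Zeb1Prx1, which is 0.363 ± 0.189 and 0.515 ± 0.268 FPKM. The ratio was 1.34 (1.03 to 1.75 by counting error), and the genotypes overlapped. Lef1, a transcription factor of the pathway, had 2, 2 and 3 fragments in WT and 26, 3 and 15 in Zeb1Prx1, a ratio of 5.99 (2.68 to 15.8), with Zeb1Prx1 replicate 2 level with WT replicate 3. Tcf7 had 15, 27 and 10 fragments in WT and 57, 22 and 22 in Zeb1Prx1, a ratio of 1.85 (1.31 to 2.64), also with overlap. The feedback inhibitor Nkd1 had 20, 39 and 103 fragments against 21, 42 and 22, and its relative Nkd2, the one tested gene of this group, measured 1.75 ± 0.902 and 1.49 ± 0.230 FPKM. The ratio for Nkd1 was 0.5 (0.38 to 0.655 by counting error), and only WT replicate 3 stood apart. The counting intervals excluded a ratio of 1 in both directions, higher for Axin2, Lef1 and Tcf7 and lower for Nkd1. The libraries of the genotypes overlapped for each of these genes, and none of them was tested.

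**Figure D4:**
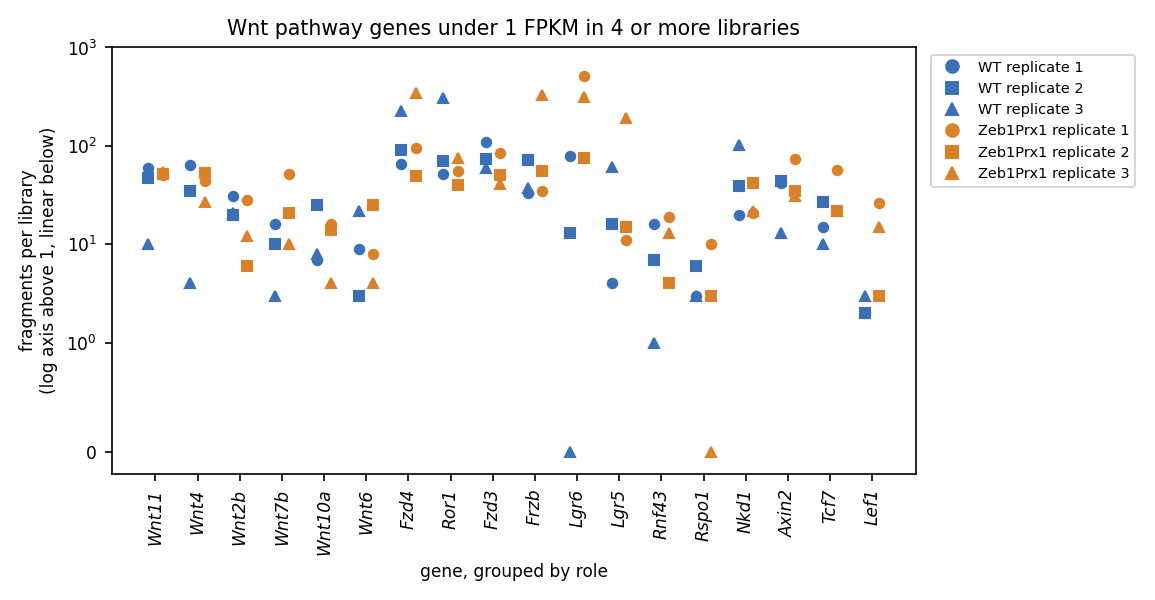
Fragments per library of the 18 Wnt genes under the filter with at least 20 fragments over the 6 libraries, on an axis that is logarithmic above 1 and linear below. Lgr6 spans 0 to 79 fragments in WT and 76 to 517 in Zeb1Prx1, and the target genes Axin2, Tcf7 and Lef1 stay under 100 fragments in each library.

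Other genes of the pathway gave the setting of these values. Of 80 further Wnt pathway genes in the file, 62 were tested, 26 with a log2 difference above 0 and 36 below, at a median of -0.05. None passed the adjusted test (limma adjusted p 0.264 to 0.987). At a limma unadjusted p under 0.05 there were 4 higher and 2 lower, beside 8.15% higher and 6.98% lower over all genes tested. In Wnt secretion and co-receptors, 5 of 9 tested genes were above 0 and 2 of them were higher before adjustment. Ryk, a Wnt5a receptor, measured 23.0, 24.3 and 22.4 FPKM in WT and 31.7, 35.0 and 35.7 FPKM in Zeb1Prx1. Both genotypes were tight and did not overlap, with a log2 difference of 0.53 (SE 0.13, limma adjusted p = 0.264). Mesd, the chaperone of Lrp5 and Lrp6, measured 13.0 ± 2.36 and 20.6 ± 6.41 FPKM. Wls, which carries Wnt ligands to the cell surface, measured 35.8 ± 2.76 and 41.6 ± 1.54 FPKM without overlap. Its log2 difference was 0.21 (SE 0.14, limma unadjusted p = 0.171). The FPKM of all genes summed to at most 289879.1 in a WT library and to 372565.8 and 312037.5 in Zeb1Prx1 replicates 2 and 3. Values of Wls at an equal sum are not given here. Porcn, which attaches the lipid of Wnt ligands, measured 3.26 ± 0.798 and 4.95 ± 1.36 FPKM.

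Among the other ligands and secreted modulators 3 of 12 genes were tested, Cthrc1, Trabd2b and Igfbp4, and all 3 log2 differences were above 0 with overlapping genotypes. Cthrc1, a collagen triple helix protein that favours Ror2 signalling, measured 15.4 ± 8.32 FPKM in WT and 32.3 ± 17.1 FPKM in Zeb1Prx1. In the group of beta-catenin destruction and transcription, 7 of 24 tested genes were above 0 and 17 below, at a median of -0.08. Tle4, a Groucho-type corepressor, measured 8.16, 6.98 and 7.06 FPKM in WT and 5.20, 5.50 and 3.82 FPKM in Zeb1Prx1. Every Zeb1Prx1 library was below every WT library, with a log2 difference of -0.53 (SE 0.16, limma adjusted p = 0.275). The next smallest p-values of this group belonged to Tle3, Apc and Tnks, each with a lower mean in Zeb1Prx1 and overlapping genotypes. Ctnnb1, which encodes beta-catenin itself, had a log2 difference of 0.04.

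In the planar cell polarity and Ca2+ branch 4 of 12 tested genes were above 0 and 8 below. Nfatc2, a calcium-dependent transcription factor, measured 6.70, 7.84 and 6.57 FPKM in WT and 5.09, 1.51 and 2.51 FPKM in Zeb1Prx1, lower in each Zeb1Prx1 library, with a log2 difference of -1.09 (SE 0.31, limma adjusted p = 0.275). Nfatc1 measured 12.0 ± 1.29 and 9.09 ± 2.03 FPKM, Nfatc4 9.84 ± 1.75 and 11.9 ± 0.769 FPKM and Daam1 3.51 ± 0.236 and 2.99 ± 0.920 FPKM. Of the other targets of beta-catenin 14 were tested, 7 in each direction. Tnfrsf11b, which encodes the osteoclast inhibitor osteoprotegerin, measured 6.51, 16.9 and 5.92 FPKM in WT and 48.7, 28.5 and 224 FPKM in Zeb1Prx1. All Zeb1Prx1 libraries were higher, with a ratio of means of 10.3, of 3.95 without Zeb1Prx1 replicate 3 and of 16.2 without WT replicate 2, and a log2 difference of 2.82 (SE 0.76, limma adjusted p = 0.273). Bambi, a pseudoreceptor that dampens TGF-beta signals, measured 1.25 ± 0.310 and 2.11 ± 0.126 FPKM without overlap. Wisp2 measured 203 ± 104 and 339 ± 68.5 FPKM and Ctgf 114 ± 90.0 and 196 ± 55.1 FPKM, both with overlap.

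Markers of other cell types also varied between libraries, not all in the same way, and their part in the differences of the Wnt genes was not tested. The 16 chondrocyte markers summed to 34.5, 234 and 181 FPKM in WT and 653, 202 and 2735 FPKM in Zeb1Prx1. Zeb1Prx1 replicate 3 had the highest chondrocyte sum and the highest Fzd9, Fzd8, Wif1, Frzb and Lgr5. That library held the highest value of 13 of the 28 tested members, so a shared top library is common among them. Col2a1, the main collagen of cartilage, measured 3.62 ± 2.18 FPKM in WT and 539 ± 573 FPKM in Zeb1Prx1, a ratio of means of 149 and of 61.2 without replicate 3, and 7 of 7 tested chondrocyte markers were above 0. The 12 osteoblast and osteocyte markers summed to 29.9 to 54.0 FPKM in WT and 67.3 to 188 FPKM in Zeb1Prx1, and Mepe was at 0. Zeb1Prx1 replicate 1 was highest, as for Fzd5, Fzd6, Lgr6, Axin2 and Tcf7, of which Lgr6, Axin2 and Tcf7 were not tested. That library held the highest value of 6 of the 28 tested members, Wnt5a, Wnt10b, Wnt16 and Lrp4 besides Fzd5 and Fzd6. Zeb1Prx1 replicate 3, with the highest Fzd9 and Wif1, had the lowest osteoblast sum of the Zeb1Prx1 libraries (67.3 FPKM). Of the 18 macrophage markers 15 had a log2 difference below 0. The 8 epithelial markers summed to at most 0.542 FPKM in WT and to 3.56 to 21.3 FPKM in Zeb1Prx1, while the 7 endothelial markers stayed at or under 4.24 FPKM in every library. The 13 stromal markers summed to 2492 to 3661 FPKM in WT and 3323 to 6087 FPKM in Zeb1Prx1, and the 5 tendon markers to 105 to 962 and 435 to 736 FPKM.

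The genotypes also differed in sex-linked genes. Xist measured 26.8, 40.4 and 32.9 FPKM in WT and at most 12.6 FPKM in Zeb1Prx1, and the Y-linked gene Ddx3y measured 6.88 ± 2.10 and 19.2 ± 3.94 FPKM. All 4 Y-linked genes listed were higher in every Zeb1Prx1 library than in every WT library, so the balance of male and female cells and the genotype cannot be told apart in these libraries.

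**Figure D5:**
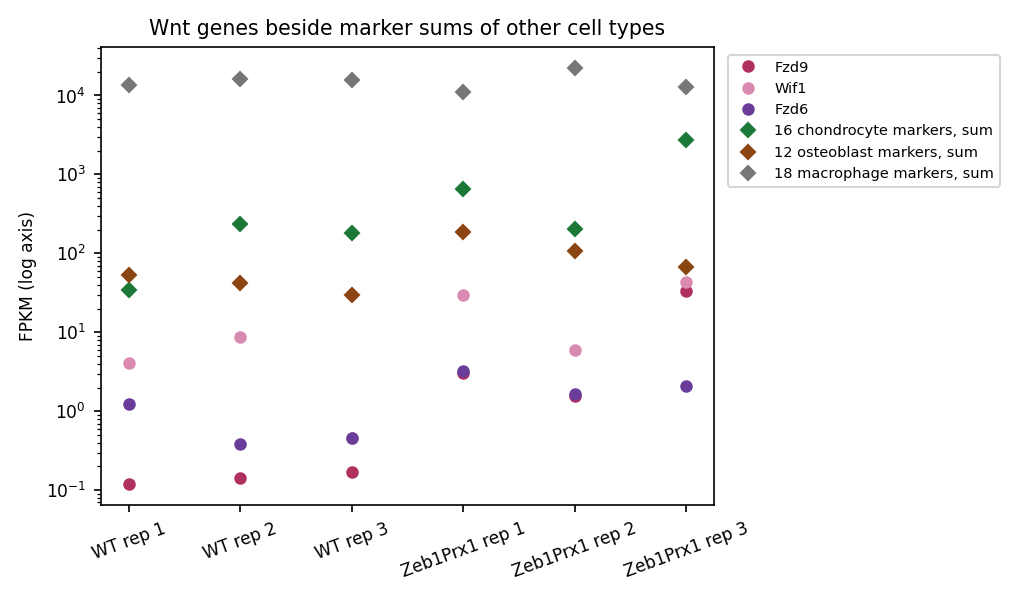
FPKM on a log axis of Fzd9, Wif1 and Fzd6 (circles) and summed FPKM of chondrocyte, osteoblast and macrophage markers (diamonds) in each library. Zeb1Prx1 replicate 3 has the highest Fzd9 (33.1), Wif1 (43.5) and chondrocyte sum (2735), and Zeb1Prx1 replicate 1 has the highest Fzd6 (3.28) and osteoblast sum (188).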

How the data were processed

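The deposited table holds FPKM per gene and library as computed by the authors, with names, lengths and positions of the genes per the file headers. The submitters' processing notes name mm10 as the genome build. The aligner, the counter and whether strand was used were not given in the sources. Multiplied by length, 127408 of 127408 values above 0 came out as whole multiples of a step constant within each library (relative tolerance 1e-06), which gave fragments per gene. A count of 0 allows up to 3 fragments, and limits and intervals cover counting error only.

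Genes with at least 1 FPKM in at least 3 of 6 libraries were tested with limma 3.58.1 in R 4.3.3 (linear model with an intensity trend on log2(FPKM + 1), Zeb1Prx1 minus WT, 3 libraries each, no covariate), with Benjamini-Hochberg adjustment over 12534 genes and a threshold of 0.05. Scripts were tested on simulated data. Frizzled shares were compared by an exact permutation test. Of the members, 21 overlap another gene in the annotation, and 1 (Wnt5b) a gene of at least 1 FPKM. Symbols Ccn2, Ccn4 and Ccn5 were matched as Ctgf, Wisp1 and Wisp2, and Tle5 was not used here. Promoter windows matched 36 of 54 members, and 18 had no entry.

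Members whose genotypes did not overlap or whose unadjusted p was under 0.05 are given by library, other tested members by mean and SD, members under the filter by fragments where they had at least 20, and of each other pathway list up to 4 genes with the smallest p. Fzd8, Wnt5a, Wnt5b, Dkk3, Sfrp1, Sfrp2, Rspo2 and Rspo3 are also given by library, a choice made after their values were seen. The members, lists and rules were chosen with earlier results of these data known. Alternatives covered the pseudocount, filter, scaling, replicate block, library weights, intensity trend, a macrophage covariate, protein-coding genes only, voom on fragments and leaving out each library.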

Additional observations from a re-analysis of the deposited data

How the results depend on the processing

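No Wnt member passed the adjusted test under 19 of 20 alternatives. With limma array weights, Zeb1Prx1 replicate 3 had a weight of 2.82 and replicate 2 a weight of 0.226, and 447 of 12534 genes passed. Among them were 2 members, Fzd9 (log2 difference 4.12, limma adjusted p = 0.0485) and Ror2 (0.70, limma adjusted p = 0.0463). Also among them were 4 other Wnt pathway genes and Zeb1 (-1.34, limma adjusted p = 0.042). Fzd9 entered the test only through its high Zeb1Prx1 libraries. Over the alternatives the adjusted p ranged from 0.0485 to 0.725 for Fzd9 and from 0.0463 to 0.584 for Ror2. With these weights 11 members had an unadjusted p under 0.05, all 11 of them higher, and 12 other pathway genes did. The share of all tested genes at that level with these weights is not given here, so these counts have no background beside them. With the macrophage covariate 4 members had that level, 2 higher (Notum, Rspo3) and 2 lower (Fzd7, Lrp5), so that of the 6 members of the reported fit only Notum was shared, and the median log2 difference was 0.02, with Fzd9 at 0.54, Wif1 at 0.21 and Ror2 at 0.19. The median was 0.11 with no filter. Members without overlap numbered 3 (Fzd6, Fzd9 and Notum) when each library was scaled to the same summed FPKM. That scaling put the median of all genes at -0.12. Members without overlap also numbered 3 with a mean of at least 5 FPKM, where fewer members were tested. The cause of these differences was not tested.

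Leaving out 1 library at a time, 0 to 1 genes passed the adjusted test, the 1 without Zeb1Prx1 replicate 2. Members at an unadjusted p under 0.05 numbered 1 to 9, and so did those higher: 1 without Zeb1Prx1 replicate 1 (Fzd6), 3 without Zeb1Prx1 replicate 3 or WT replicate 1, and 9 without Zeb1Prx1 replicate 2. Members without overlap numbered 3 to 10. There were 3 without Zeb1Prx1 replicate 1, 8 without WT replicate 2, 9 without Zeb1Prx1 replicate 2 and 10 without WT replicate 3. Without Zeb1Prx1 replicate 3, Fzd7 was lower without overlap. Separation is easier to reach with 1 library fewer, and the shares of all tested genes at these settings are not given here. Fzd9 and Notum no longer passed the filter when any Zeb1Prx1 library was left out, so those fits did not test them. Other pathway genes at an unadjusted p under 0.05 numbered 5 to 10, the 10 without Zeb1Prx1 replicate 1. The median of the members ranged from 0.27 to 0.62. Fzd5, Fzd6, Fzd9, Ror2, Wif1 and Notum stayed above 0 under each alternative that tested them. Of the 28 tested members 16 changed sign under at least 1 alternative, among them Fzd1, Sfrp2 and Rspo2 under the scaling to an equal sum and Wnt5a, Sfrp4 and Dkk3 under the macrophage covariate. Taking out X and Y genes, an alternative chosen after seeing the data, left the members' values as they were, since no member lies there, and is no check on sex.

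Replicate numbers did not pair the libraries: deviations from the group means correlated at 0.03, -0.41 and 0.08 for the numbers 1, 2 and 3. With the replicate block 0 members passed the adjusted test, 6 had an unadjusted p under 0.05 and the median was 0.42, but the 6 included Fzd2 and Fzd8 in place of Fzd5 and Wif1. Not every library correlated best with its own number. At 2 or 3 fragments per library, as for Lef1 in WT, counting error limits what can be seen.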

Other observations

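Per length, the order of the Wnt genes by mean over the 6 libraries began with Dkk3 (166 FPKM), Sfrp2 (35.9), Rspo2 (30.2), Fzd1 (23.6) and Fzd8 (22.6), and ended with Wnt1, Wnt3, Wnt3a and Sost at 0. Dkk3 had its lowest library at 106 FPKM, above the mean of every other member, whereas Sfrp2 in second place was above 10 FPKM in only 2 libraries. The summed level of the secreted inhibitors was 199 ± 74.0 FPKM in WT and 286 ± 160 FPKM in Zeb1Prx1, and that of the ligands was 15.0 ± 4.62 and 23.5 ± 4.33 FPKM. Both sums overlapped between the genotypes. Of the summed Lgr receptor level, Lgr6 made up 13.3%, 1.30% and 0% in WT and 32.1%, 12.9% and 16.4% in Zeb1Prx1, where replicate 2 lay just under WT replicate 1.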
